A study of Mus musculus with 2 samples.

Results

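The Notch pathway genes described here are 10 in number: the receptors Notch1, Notch2, Notch3 and Notch4, the ligands Jag1, Jag2, Dll1 and Dll4, and the target genes Hes1 and Hey1. They were taken by symbol from the authors' deposited probe table, which holds 13 probes for them out of 55681 on the array, and all 13 passed the filter on dim probes. Their values were compared within a fit of 30864 features. The study measured total RNA of isolated pancreatic islets from C57BL/6J mice aged 8 weeks. Islets had been isolated on day 3 after pancreatectomy, in which 60% of the pancreas was taken out, or on day 3 after a sham operation. Each group is a single deposited sample with 4 single-colour arrays, called replicates 1 to 4 in each group. The sham label names 1 of its arrays in duplicate and omits another, so sham replicate 4 is in its group by the sample its file was deposited under. The labels do not say whether the arrays came from separate animals, so every p-value speaks only of array-to-array spread, and that spread may be technical.

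Notch signalling passes between touching cells. A ligand of the Jagged or Delta-like family on 1 cell binds a Notch receptor on its neighbour, the receptor is cut by an ADAM protease and then by gamma-secretase, and its freed intracellular part joins the DNA-binding protein RBPJ and the co-activator MAML in the nucleus to switch on genes of the Hes and Hey repressor families. In the embryonic pancreas, Notch signalling through Hes1 holds back Neurog3, the factor that commits progenitors to the endocrine fate. In vessels, Notch4 and Dll4 are known from endothelial cells and Notch3 from the mural cells that wrap them.

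Promoter sequence is shown for the receptors that differed most between pancreatectomy arrays, Notch2 and Notch4, and for Hes5, a pathway target with the RBPJ core on both strands. The windows run from 250 bases before to 50 bases after the annotated start and come from RefSeq on GRCm38.p6, which gave windows for 8 of the 10 genes. Motifs were searched on both strands in 4 forms that do not overlap one another in these windows: TGGGAA, the RBPJ core, CACGTG, an E box, CACGCG, the class C site known for Hes and Hey proteins, and TGACTCA, a form of the AP-1 site. The windows shown lie at chr3:98013288-98013587 on the plus strand for Notch2, chr17:34564045-34564344 on the plus strand for Notch4 and chr4:154960673-154960972 on the plus strand for Hes5, and capitals mark the motif matches.
Notch2: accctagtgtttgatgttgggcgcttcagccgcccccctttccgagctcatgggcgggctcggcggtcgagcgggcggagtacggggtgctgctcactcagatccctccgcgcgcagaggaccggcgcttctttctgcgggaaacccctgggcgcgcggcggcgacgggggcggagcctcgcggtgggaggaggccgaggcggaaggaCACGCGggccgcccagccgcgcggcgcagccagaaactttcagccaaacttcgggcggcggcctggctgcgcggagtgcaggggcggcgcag
Notch4: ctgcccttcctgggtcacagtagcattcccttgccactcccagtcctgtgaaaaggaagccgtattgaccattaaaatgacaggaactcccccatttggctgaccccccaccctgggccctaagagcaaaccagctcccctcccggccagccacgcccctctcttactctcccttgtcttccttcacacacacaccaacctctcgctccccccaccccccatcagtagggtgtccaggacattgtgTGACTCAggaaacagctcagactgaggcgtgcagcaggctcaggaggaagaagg
Hes5: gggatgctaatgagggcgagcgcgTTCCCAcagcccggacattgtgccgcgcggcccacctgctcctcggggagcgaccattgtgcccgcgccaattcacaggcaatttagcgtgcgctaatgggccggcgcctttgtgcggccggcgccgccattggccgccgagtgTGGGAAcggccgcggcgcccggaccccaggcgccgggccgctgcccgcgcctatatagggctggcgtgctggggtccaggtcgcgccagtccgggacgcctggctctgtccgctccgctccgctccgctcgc

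The Notch2 window holds 1 class C site at -42 to -37 from the start, and the Notch4 window holds 1 AP-1 form at -4 to 2. The Hes5 window holds the RBPJ core at -226 to -221 and at -82 to -77. None of the 9 windows of the 8 genes holds the RBPJ core, which 25.56% of 32851 RefSeq windows of the same length hold. The class C site is in 9.27% of those windows, the AP-1 form in 5.20% and the E box in 7.15%. A match is only a run of letters in a window, and its absence says nothing about the factor.

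The arrays themselves were uneven. The 75th percentile of the processed signal ran from 280 to 640 on pancreatectomy arrays and from 178 to 655 on sham arrays, and the share of probes well above background from 59.1% to 71.4% on pancreatectomy arrays and from 48.1% to 70.9% on sham arrays. Sham replicate 3 was lowest in both measures. All 8 arrays lie on 1 slide, with pancreatectomy arrays in columns 3 and 4 and sham arrays in columns 1 and 2, so slide column and group cannot be told apart. Markers of the labelled tissue were present: 10 of 10 beta-cell markers and 7 of 7 markers of the other islet hormone cells were well above background on all 8 arrays. Some arrays stood apart from their group by transcripts of other tissues. The mean log2 difference of 14 liver markers from the sham mean was 4.77, -1.47, -0.32 and 3.97 on pancreatectomy replicates 1 to 4, against -1.46, -1.81, -1.35 and 4.63 on sham replicates 1 to 4. That of 8 measured B-cell markers was 4.42 on pancreatectomy replicate 3 and that of 8 measured gut markers 3.71, with the other arrays at or below 0.28 and 0.69.

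None of the 10 genes passed the test between pancreatectomy and sham arrays. Of all features, 0.629% did so, at a limma adjusted p below 0.05, with 168 of them higher on pancreatectomy arrays and 26 lower. None of the 10 reached an unadjusted p of 0.05 in limma either, which 10.5% of all features did. Notch3 came closest, at an unadjusted limma p of 0.0504. For none did the arrays of the groups fail to overlap, which 8.28% of all features did. The changes were positive for 5 genes and negative for 5, with a median of 0.10 on the log2 scale against -0.037 over all features, and the median size was 0.29 against 0.21. Notch2, with 1.74-fold more signal on pancreatectomy arrays, had the largest change, and Notch3 had the smallest adjusted p, 0.476. An exact two-sided permutation test over arrays, which cannot go below 0.0286 here, gave its smallest value of the 10 for Notch3, 0.0571. The intervals were wide for some genes, and that of Hes1 reached 1.85 on the log2 scale.

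**Figure D1:**
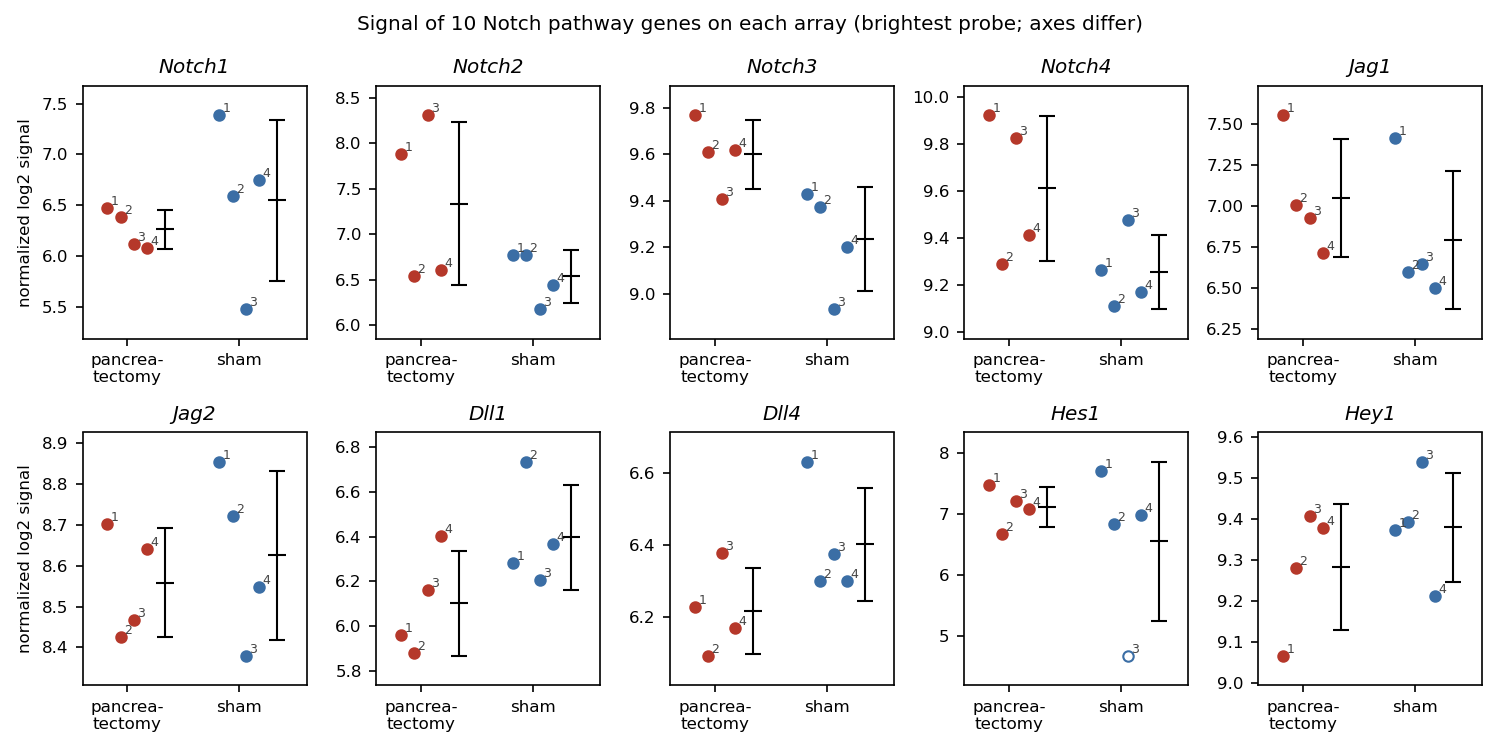
Normalized log2 signal of each gene on each array, with 4 pancreatectomy arrays on the left of each panel and 4 sham arrays on the right, and the mean and SD beside the points. Numbers beside points are replicate names, the open point is not well above background, and in every panel the arrays of the groups overlap.

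Positions below are those of the probes on mm9, as the array design gives them. Among the ligands, Dll1, a Delta-like ligand (chr17:15504623-15504682, minus strand), had a normalized log2 signal of 5.96, 5.88, 6.16 and 6.40 on pancreatectomy replicates 1 to 4, against 6.28, 6.74, 6.21 and 6.37 on sham replicates 1 to 4. Of the pancreatectomy arrays, 3 lay below every sham array and replicate 4 lay among them. The change was -0.30 (SE 0.18, 95% interval -0.71 to 0.11, limma adjusted p 0.602). Dll4, the Delta-like ligand of sprouting vessels (chr2:119160779-119160838, plus strand), had 6.23, 6.09, 6.38 and 6.17 on pancreatectomy arrays, against 6.63, 6.30, 6.38 and 6.30 on sham arrays. Again 3 pancreatectomy arrays lay below every sham array, with replicate 3 inside the sham range. The change was -0.19 (SE 0.14, interval -0.51 to 0.14, limma adjusted p 0.679).

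Jag1, the Jagged ligand best known from vessels and bile ducts (chr2:136907433-136907492, minus strand), had 7.56, 7.01, 6.93 and 6.71 on pancreatectomy arrays, against 7.42, 6.60, 6.65 and 6.50 on sham arrays. Replicate 1 was the highest array in each group, and sham replicate 1 exceeded 3 of the pancreatectomy arrays. The change was 0.26 (SE 0.26, interval -0.32 to 0.84, limma adjusted p 0.753). It was 0.091 with pancreatectomy replicate 1 left out and 0.47 with sham replicate 1 left out. Jag2, the other Jagged ligand (chr12:114146887-114146946, minus strand), had 8.70, 8.43, 8.47 and 8.64 on pancreatectomy arrays, against 8.86, 8.72, 8.38 and 8.55 on sham arrays. The groups were interleaved throughout. Its change of -0.067 (SE 0.16, interval -0.42 to 0.29, limma adjusted p 0.898) turned to 0.0090 without sham replicate 1.

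Among the receptors, Notch1, the broadly expressed family member (chr2:26319440-26319499, minus strand), had 6.47, 6.39, 6.12 and 6.08 on pancreatectomy arrays, against 7.39, 6.59, 5.47 and 6.74 on sham arrays. The pancreatectomy arrays lay close together, and the sham arrays held both the highest and the lowest value. The change was -0.28 (SE 0.36, interval -1.10 to 0.53, limma adjusted p 0.805), and it was -0.64 without sham replicate 3 and -0.0047 without sham replicate 1. Of Notch3, the receptor known from mural cells (chr17:32257848-32257907, minus strand), the signal was 9.77, 9.61, 9.41 and 9.62 on pancreatectomy arrays, against 9.43, 9.37, 8.93 and 9.20 on sham arrays. Here 3 pancreatectomy arrays lay above every sham array, and pancreatectomy replicate 3 lay just below the highest sham array. The change was 0.37, a ratio of 1.29 (SE 0.16, interval -0.00078 to 0.73, limma adjusted p 0.476).

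Notch2 had 7.89, 6.54, 8.31 and 6.61 on pancreatectomy arrays, against 6.77, 6.77, 6.17 and 6.44 on sham arrays. Pancreatectomy replicates 1 and 3 stood above every sham array, while replicates 2 and 4 lay within the sham range. Notch2 averaged 7.34 ± 0.90 on pancreatectomy arrays and 6.54 ± 0.29 on sham arrays (SD, n = 4 each), a change of 0.80 (SE 0.41, interval -0.12 to 1.72, limma adjusted p 0.536), and of 0.48 without pancreatectomy replicate 3. Notch4, the receptor known from endothelium (chr17:34725120-34725179, plus strand), had 9.92, 9.29, 9.83 and 9.41 on pancreatectomy arrays, against 9.27, 9.11, 9.48 and 9.17 on sham arrays. As for Notch2, pancreatectomy replicates 1 and 3 were the only arrays above the whole sham range. Notch4 averaged 9.61 ± 0.31 on pancreatectomy arrays and 9.26 ± 0.16 on sham arrays (SD, n = 4 each), a change of 0.36 (SE 0.19, interval -0.06 to 0.78, limma adjusted p 0.549).

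Pancreatectomy replicates 1 and 3 also carried more signal of stromal, macrophage and duct markers. The mean log2 difference from the sham mean of 10 fibroblast markers, collagens among them, was 2.48, -0.17, 1.98 and 0.06 on pancreatectomy arrays, against 0.34, -0.03, -0.04 and -0.27 on sham arrays. For 9 measured of 10 macrophage markers it was 1.99, -0.46, 1.57 and 0.02 on pancreatectomy arrays, against -0.24, 0.03, 0.19 and 0.02 on sham arrays. Both lists were high on the arrays where Notch2 and Notch4 were high. For 12 mural markers the mean difference was 1.10, 0.06, 0.81 and 0.51 on pancreatectomy arrays, against 0.11, -0.19, 0.30 and -0.22 on sham arrays. That mean includes Cnn1, which had the largest change of the list, 2.62. Cnn1 had 7.06, 2.35, 4.96 and 6.53 on pancreatectomy arrays, against 4.03, 0.95, 3.05 and 2.38 on sham arrays. Only 1 sham array was well above background for Cnn1, so the mural mean rests in part on signal near background. For 20 endothelial markers it was 0.42, 0.04, 0.47 and 0.09 on pancreatectomy arrays, against 0.12, -0.03, 0.12 and -0.21 on sham arrays. For 10 duct markers it was 0.82, -0.32, 0.75 and -0.46 on pancreatectomy arrays, against 0.25, 0.28, -0.20 and -0.34 on sham arrays. The same replicates were high again, by less for the endothelial list. None of the 61 measured markers in these 5 lists passed the test in limma, and 9, or 14.8%, reached an unadjusted p of 0.05, against 10.5% of all features.

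The log2 of the summed signal spanned 13.4 to 16.8 on pancreatectomy arrays and 12.9 to 13.7 on sham arrays for fibroblast markers. For macrophage markers it spanned 13.3 to 14.6 on pancreatectomy arrays and 13.7 to 13.9 on sham arrays, and for mural markers 14.6 to 15.2 on pancreatectomy arrays and 14.4 to 14.6 on sham arrays. For endothelial markers it spanned 15.7 to 15.9 on pancreatectomy arrays and 15.5 to 15.9 on sham arrays, and for duct markers 15.4 to 15.7 on pancreatectomy arrays and 14.9 to 15.9 on sham arrays. Of the defining markers, Cd163 gave no probe above the filter, and Cnn1, a smooth muscle gene, was well above background on 3 pancreatectomy arrays and 1 sham array. With pancreatectomy replicates 2 and 4 alone against the 4 sham arrays, a setting chosen after the values were seen that leaves out the arrays where Notch2 and these markers were highest, the change was 0.039 for Notch2 and 0.096 for Notch4, while for Notch3 it was 0.38. These values follow from which arrays were left out. The part of other cells in the Notch2 and Notch4 values was not tested. In bulk RNA, fewer cells of a type and less RNA per cell cannot be told apart.

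**Figure D2:**
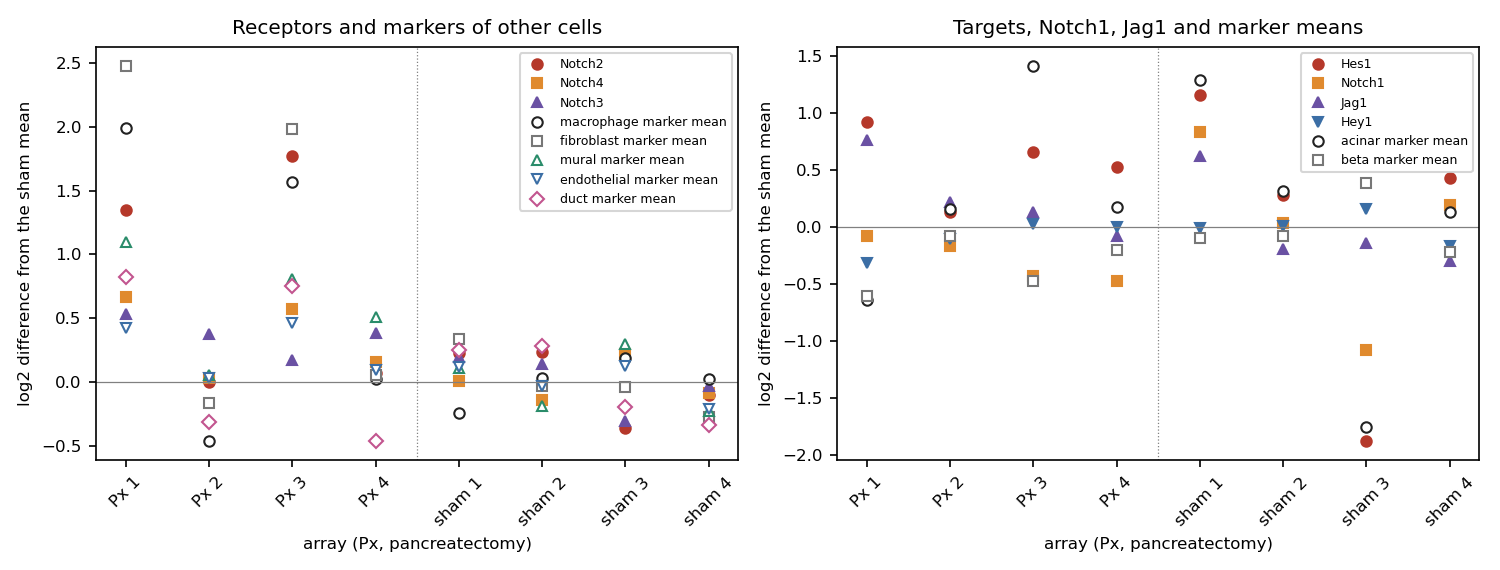
Log2 difference from the sham mean on each array, with pancreatectomy arrays left of the dotted line and sham arrays right of it. Filled symbols are genes and open symbols marker list means. Notch2 reached 1.35 and 1.77 on pancreatectomy replicates 1 and 3, where the fibroblast mean was 2.48 and 1.98, and Hes1 was lowest on sham replicate 3, at -1.88, where the acinar mean was -1.75.

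A second probe exists for 3 of the genes. The dimmer Notch2 probe had 4.67, 4.17, 4.46 and 4.70 on pancreatectomy arrays, against 4.72, 4.47, 4.57 and 4.34 on sham arrays, and was well above background on 3 arrays of each group. It did not follow the brighter probe, since pancreatectomy replicates 1 and 3 lay inside the sham range, and its change was -0.027 (SE 0.17, limma adjusted p 0.964). On mm9, the array design places the brighter probe at chr3:97953914-97953973 and the dimmer one at chr3:97951233-97951292, both on the plus strand. Exon and UTR annotation of that build was not used here. The Notch2 change thus rests on 1 of its 2 probes. For Notch1, the dimmer probe had a change of -0.46 (SE 0.27, limma adjusted p 0.582) and was well above background on 1 pancreatectomy array and 3 sham arrays. For Dll1, the dimmer probe had a change of -0.080 (SE 0.21, limma adjusted p 0.913) and was likewise well above background on 1 pancreatectomy array and 3 sham arrays. The differences of these 2 dimmer probes thus rest largely on signal near background, and no direction is read from them.

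**Figure D3:**
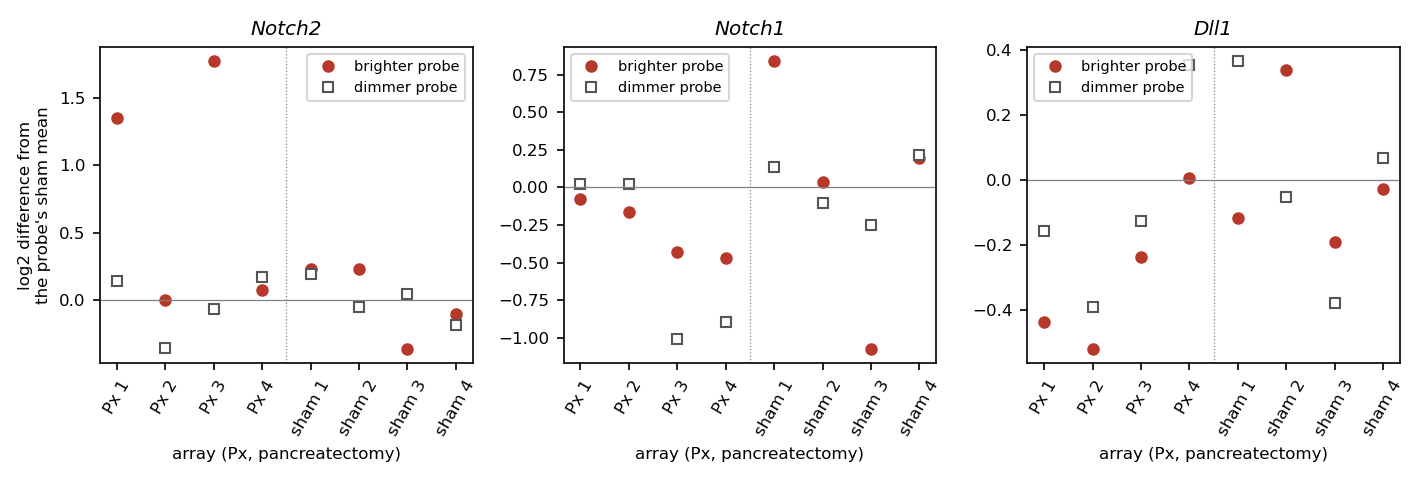
Log2 difference of each probe from its own sham mean on each array for the 3 genes with 2 probes, pancreatectomy arrays left of the dotted line and sham arrays right of it. The brighter Notch2 probe stands high on pancreatectomy replicates 1 and 3, and the dimmer probe does not.

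Of the targets, Hes1, the repressor through which Notch acts on Neurog3 (chr16:30067820-30067879, plus strand), had 7.47, 6.68, 7.20 and 7.07 on pancreatectomy arrays, against 7.71, 6.83, 4.67 and 6.98 on sham arrays. Sham replicate 3 stood far below the rest and was not well above background for this probe, and the other sham arrays overlapped the pancreatectomy arrays. Hes1 averaged 7.10 ± 0.33 on pancreatectomy arrays and 6.55 ± 1.31 on sham arrays (SD, n = 4 each), a change of 0.56 (SE 0.57, interval -0.73 to 1.85, limma adjusted p 0.762). Without sham replicate 3 the change was -0.068, and the sign also differed between the slide rows, at -0.20 within row 1 and 1.31 within row 2. Notch1 was also lowest on sham replicate 3. On that array the acinar marker mean was -1.75 from the sham mean, against -0.64 to 1.42 on pancreatectomy arrays and 0.14 to 1.29 on the other sham arrays, and its part in the Hes1 value was not tested. Hey1, the target known from vessels and heart (chr3:8663432-8663491, minus strand), had 9.07, 9.28, 9.41 and 9.38 on pancreatectomy arrays, against 9.37, 9.39, 9.54 and 9.21 on sham arrays. All but pancreatectomy replicate 1 lay within the sham range. The change was -0.097 (SE 0.14, interval -0.43 to 0.23, limma adjusted p 0.838).

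Over the other genes of the pathway, in 6 lists by role, 58 of 60 were measured and none rose or fell in limma. At an unadjusted p of 0.05 there were 4, or 6.90%, against 10.5% of all features, and 8, or 13.8%, had groups with no overlap, against 8.28% of all features. The changes were positive for 18 and negative for 40, with a median of -0.18 against -0.037 over all features. Of all features, 45.1% had a positive change. Among 20 genes of the nuclear complex, 16 changes were negative and the median was -0.22. Rbpj itself, named for its role and outside the rule for named genes, had 8.98, 8.63, 8.92 and 8.86 on pancreatectomy arrays, against 9.32, 9.31, 8.51 and 9.15 on sham arrays. Sham replicate 3 was again the lowest of all, and the other sham arrays lay above every pancreatectomy array. The Rbpj change was -0.22 (SE 0.21, limma adjusted p 0.733), and its other probe had 0.32. The genes with the largest changes in that list were the co-repressor Ncor1 at -0.46, the acetyltransferase Ep300 at -0.38 and the co-repressor Tle3 at -0.37, and none passed the test. The other Ncor1 probes had -0.40, -0.04 and -0.24, and the Ncor1 change was -0.26 without sham replicate 3.

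Of 13 genes that traffic or mark ligand and receptor for turnover, 3 reached an unadjusted p of 0.05, or 23.1% against 10.5% of all features, and the median was -0.19. In 4, or 30.8% against 8.28% of all features, the groups had no overlap, lower in 3 and higher in Neurl1b. Neurl1b, a further neuralized gene outside the rule for named genes, had a change of 0.28 (SE 0.15, limma adjusted p 0.563). The other Neurl1b probe had -0.04, so that change rests on 1 of 2 probes. Neurl1a, a neuralized-family ubiquitin ligase, had 11.42, 12.03, 11.80 and 12.03 on pancreatectomy arrays, against 12.10, 12.56, 12.82 and 12.41 on sham arrays. Every pancreatectomy array lay below every sham array. The change was -0.65 (SE 0.21, limma adjusted p 0.326), with -0.57 for its other probe. The deltex genes Dtx3 and Dtx2, which encode ubiquitin ligases, had changes of -0.57 (SE 0.19, limma adjusted p 0.348) and -0.55 (SE 0.20, limma adjusted p 0.392), also without overlap between groups. None of these 4 genes passed the test.

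Of 9 measured cleavage genes, Ncstn, a gamma-secretase subunit, had a change of 0.31, the ADAM protease gene Adam17 had 0.30 and the presenilin gene Psen2 had -0.21, with a list median of -0.019. In 5 genes that add sugars to the receptor, Poglut1 had -0.31, Pofut1 -0.29 and Lfng 0.18, with a median of -0.076. The other Pofut1 probe had 0.06, and Lfng was well above background on only 3 arrays of each group. The 4 further ligands had a median of -0.098, with -0.24 for Dlk1, 0.19 for Dll3 and -0.19 for Dner. Of 7 measured further targets, with a median of -0.011, Heyl had 0.52 (SE 0.30, limma adjusted p 0.592), Nrarp, a feedback inhibitor of the pathway, 0.47 (SE 0.28, limma adjusted p 0.591) and Hes5 0.42 (SE 0.29, limma adjusted p 0.646). Heyl had 8.17, 7.36, 7.18 and 7.49 on pancreatectomy arrays, against 7.54, 7.32, 6.37 and 6.91 on sham arrays. Only pancreatectomy replicate 1 lay above every sham array. Nrarp, Hes5 and Adam17 were each well above background on 4 pancreatectomy arrays but only 3 sham arrays. None of the genes in these 4 lists passed the test.

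Of the 5 measured basic helix-loop-helix genes that Hes1 is known to repress in developing tissues, 1 fell. Of all 30864 features, 0.629% passed in either direction, and 26 were lower. This list was written with earlier results of these data known, so the count says nothing about such genes as a set. Neurog3, the endocrine progenitor factor, had 8.34, 9.23, 9.52 and 9.20 on pancreatectomy arrays, against 11.02, 11.18, 11.36 and 11.19 on sham arrays. The groups were far apart, with every pancreatectomy array below every sham array. Neurog3 averaged 9.07 ± 0.51 on pancreatectomy arrays and 11.19 ± 0.14 on sham arrays (SD, n = 4 each), a change of -2.11 (SE 0.25, interval -2.67 to -1.55, limma adjusted p 0.00898). Its change lay between -2.26 and -1.87 whichever 1 array was left out. Over the alternatives its limma adjusted p ran from 0.00326 to 0.685, and it did not pass with arrays free of liver, gut and B-cell transcripts (1 pancreatectomy array, change -1.95), with no scaling (-2.12), or within slide row 1 (-2.31) or row 2 (-1.91). The other 4 did not pass the test. Of these, Ptf1a, an acinar and progenitor factor, had a change of 0.51 (SE 0.92), and Neurog2 had -0.44 (SE 0.31). Neurog2 was well above background on only 3 arrays of each group, and Ptf1a on 4 pancreatectomy arrays and 3 sham arrays. Hes1 did not pass the test in the same arrays, and the link between the Hes1 and Neurog3 values was not tested.

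**Figure D4:**
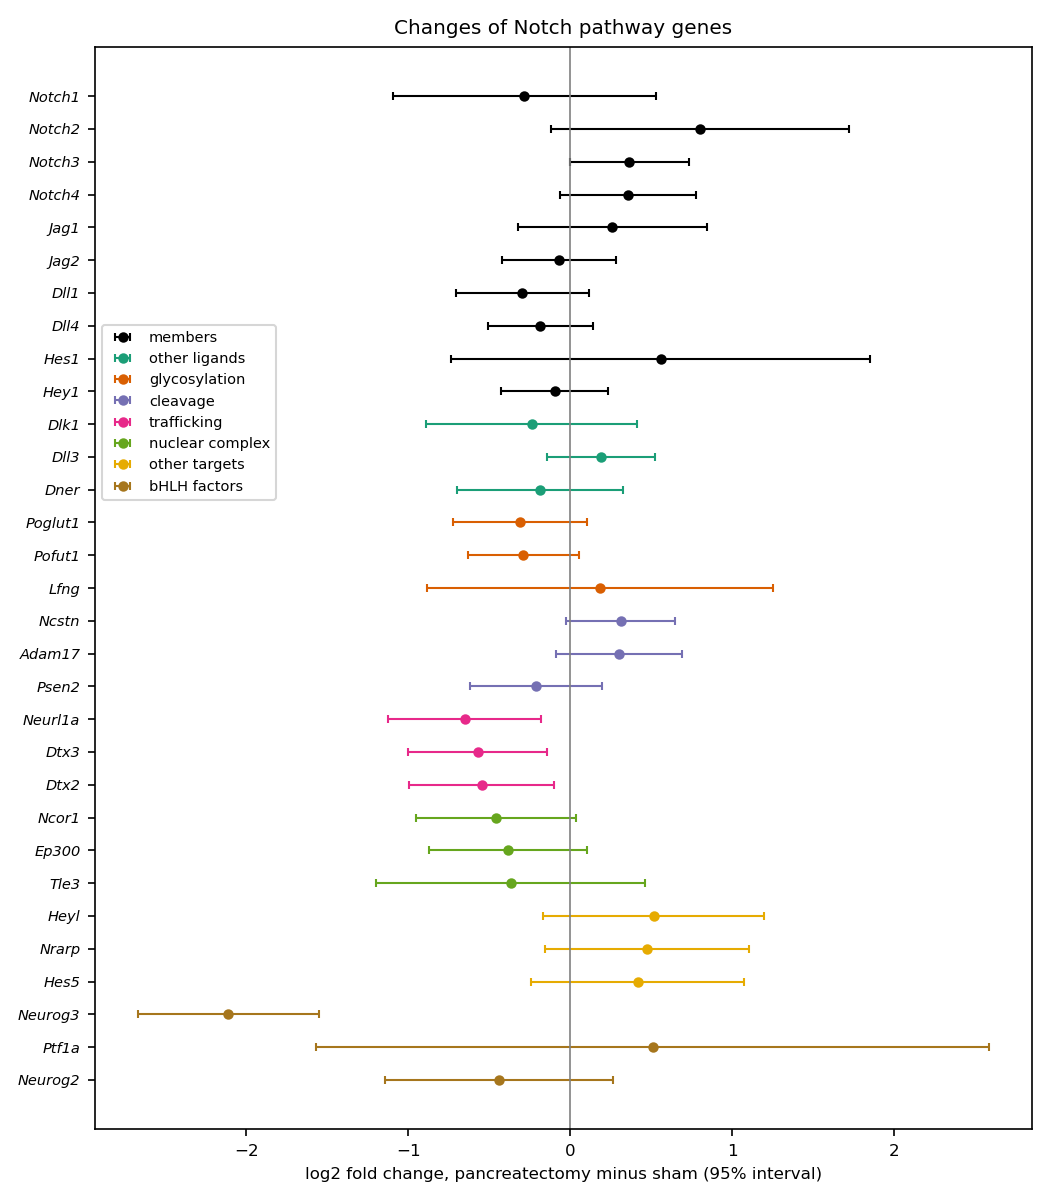
Log2 fold change, pancreatectomy minus sham, with its 95% interval for the 10 genes (black, called members in the legend) and the named genes of the other lists (colours). The interval of Neurog3, from -2.67 to -1.55, lies apart from 0, as do those of Neurl1a, Dtx3 and Dtx2, which did not pass after adjustment over all features, and the intervals of all 10 genes include 0.

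The arrays within a group differed most for Hes1, with a pooled within-group SD of 0.954. Notch2 followed at 0.665, Notch1 at 0.579 and Jag1 at 0.392, against 0.141 for Dll4 and 0.145 for Hey1. Among 18533 genes, those whose deviations from the group means over the 8 arrays were most like Hes1 were Ercc2, Ccnd3 and Usp8 (Pearson r 0.998, 0.996 and 0.995 across arrays). For Notch2 they were Ccl2, Zfp36l1 and Bst1 (r 0.992, 0.991 and 0.989), for Notch1 Gm11938, Kctd21 and Fbxo33 (r 0.988, 0.988 and 0.988) and for Jag1 Drd3 and Irx3os (r 0.968 and 0.964). These are the highest of many values, given as a description, and the points share arrays, scaling and RNA. The r values for Hes1 rest heavily on sham replicate 3. On that array Hes1 was -1.88 from its group mean and its probe was not well above background. Of the 50 genes most like Notch2, 1 was an endothelial and 1 a fibroblast marker, and 1 of the 50 most like Hey1 was a marker of the islet hormone cells other than beta cells. For the other 8 genes none of the 50 was a marker of any of the 11 lists. Each list held only 7 to 20 of the 18533 genes, so these counts cannot tell whether a gene follows a list. With the means of the fibroblast, macrophage, mural, endothelial and duct lists, the same deviations gave r of 0.61 to 0.94 for Notch2. For Notch4 the r was 0.71 to 0.95 and for Notch3 -0.14 to 0.23, again given as a description. Notch2 also had r of 0.76 with the gut, 0.68 with the B-cell and 0.41 with the acinar list means. Its r was -0.01 with the liver, -0.03 with the other islet hormone cell and -0.74 with the beta-cell list means. Pancreatectomy replicate 3, where Notch2 was highest, was also the array with the most gut and B-cell marker signal.

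**Figure D5:**
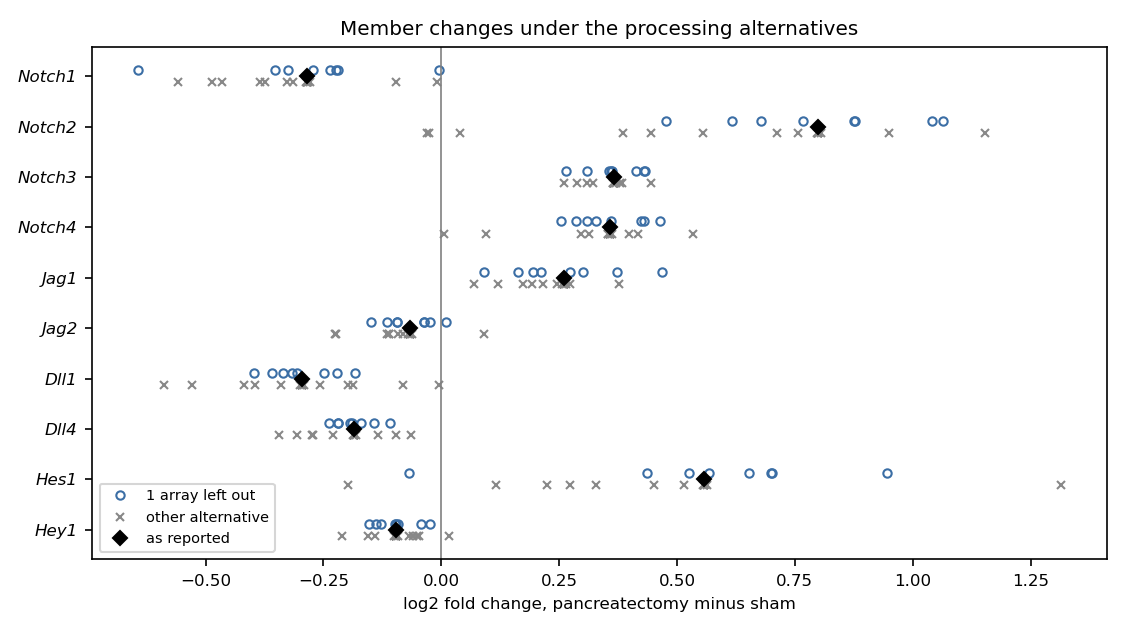
Log2 fold change, pancreatectomy minus sham, of each gene as reported (diamond), with 1 array left out (circles) and under the other processing alternatives (crosses). Notch3 lies above 0 under every alternative, from 0.26 to 0.44, and Hes1 crosses 0 without sham replicate 3.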

How the data were processed

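RNA of islets was hybridised to 8 single-colour Cy3 arrays. The deposited scanner files give each spot's intensity, which the scanner software had background-subtracted and detrended within the array. That software is Feature Extraction 10.7.3.1 in the file headers and version 9.1 in the submitters' processing notes. The authors' deposited table holds log2 group averages, made with GeneSpring GX 12.5 with shifting to the 75th percentile, as its header states. It gave gene names and a check: across 30864 features, its differences against those computed here gave r of 0.984 and a slope of 0.999.

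Control spots and outlier spots (113 to 228 per array) were left out. No spots were saturated. The processed signal was put on the log2 scale, each array's 75th percentile was subtracted and the mean percentile added back. Probes well above background on at least 4 of 8 arrays, with at least 3 values per group, were kept (37491 of 55681), and a gene is its brightest kept probe. Symbols were updated through Entrez IDs with a GRCm38.p6 table (30994 of 33325 matched). The comparison used lmFit and eBayes of limma 3.58.1 under R 4.3.3, with Benjamini-Hochberg adjustment over all features and a threshold of 0.05. Precision is limited by how few arrays there are. The pipeline was tested on simulated data.

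The genes and lists were chosen with earlier results of these data known. Named genes are all 10 members, the 3 genes with the largest absolute change in each other list, any list gene past the threshold, and the 3 genes most like each of the 4 members with the largest within-group SD, of which 1 is not reported here. Alternatives were quantile, median and no scaling, normexp, other filters, the mean of probes, an intensity trend, array weights, slide row as a block and alone, arrays without transcripts of other tissues, and leaving out arrays. The files hold no mean spot signal, so normexp used the median signal and median background with an offset of 50.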

Additional observations from a re-analysis of the deposited data

Results flagged for a closer look

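In 6 of the 68 groups of 4 arrays examined, 1 array lay far from the other 3, by a gap that exceeded Dixon's 95% critical share of the group's range. Chance gives about 1 in 20 such groups. Among the 10 genes this held for Jag1, with sham replicate 1 at 7.42 and the others between 6.50 and 6.65 (gap 0.836 of the range). Among the other pathway genes, the pancreatectomy arrays of Neurog2 had replicate 2 at 3.09 and the others between 4.25 and 4.31 (0.949). Neurog2 was well above background on only 3 arrays of each group, so that gap lies near background. For Dll3, pancreatectomy replicate 2 was at 7.35, against 7.02 to 7.06 for the others (0.865). For Hes5, pancreatectomy replicate 3 was at 5.87, against 5.08 to 5.14 (0.921). Among sham arrays, replicate 3 of Poglut1 was at 8.11, against 8.66 to 8.68 (0.957), and replicate 1 of Ncstn was at 5.72, against 5.89 to 5.93 (0.830).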

How the results depend on the processing

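None of the 10 genes passed the threshold under any alternative that was run. The count at an unadjusted limma p of 0.05, which was 0 as reported, did move. It was 3 with array weights, and 2 without pancreatectomy replicate 2 or without sham replicate 3. Groups had no overlap for 1 of them with normexp (Notch3) and for 2 with quantile scaling (Dll4 and Notch3). Neurog3, of the list of genes that Hes1 represses, passed except with arrays free of liver, gut and B-cell transcripts, with no scaling, and within either slide row, where 0 genes of the other 7 lists passed. Over all features, 194 passed, 86.6% of them higher. The number was 769 with array weights (407 higher and 362 lower, 52.9% higher), 126 with the stricter filter (73.8% higher), 122 with the slide row as a block, 72 with no filter, 60 with normexp, 18 with no scaling (100% higher) and 15 with pancreatectomy replicates 2 and 4 only, which was added after seeing the data. In limma it was 0 with arrays free of those transcripts (1649 at an unadjusted p of 0.05) and 0 within slide rows 1 and 2 (2021 and 896). Leaving out 1 array gave 59 (without sham replicate 2) to 184, with fewer than 130 also without pancreatectomy replicate 1 (129) or 4 (62) or sham replicate 1 (91) or 4 (95). The cause of these differences was not tested.

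Signs turned as follows. With arrays free of those transcripts the change was -0.030 for Notch2, -1.22 for Lfng and -0.020 for Ptf1a. The other probe of Notch2 gave -0.027. With pancreatectomy replicates 2 and 4 only it was 0.16 for Dner, -0.70 for Lfng and -0.64 for Ptf1a. Within slide row 1 it was -0.20 for Hes1, -0.13 for Lfng, -0.52 for Ptf1a and 0.054 for Tle3, and within row 2 0.044 for Dlk1, 0.016 for Hey1 and 0.090 for Jag2. Leaving out 1 array, Hes1 ranged from -0.068 to 0.95, Jag2 from -0.15 to 0.0090, Lfng from -0.16 to 0.63, Ptf1a from -0.19 to 1.11 and Tle3 from -0.56 to 0.030. No paired analysis was possible because the labels give the arrays of the groups no shared replicate numbers.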
